A study of Mus musculus with 17 samples.

Results

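The comparison described here sets the left ventricle (LV) of the mouse heart at postnatal day 7 (P7) against the left ventricle at day 0 (P0), the day of birth, in RNA sequencing of long noncoding transcripts. Its members are the 3 LV P7 libraries and the 3 LV P0 libraries, chosen by their titles, 6 of the 17 libraries in the series. All were made from total RNA of whole ventricle of male C57Bl/6 mice, without treatment, as strand-specific paired-end libraries of biological replicates, per the labels. The other 11 libraries are LV at day 3 (P3) and the right ventricle (RV) at P7, P3 and P0, 3 in each group except for 2 of RV P7. The labels place P0 before the duct that bypasses the lung closes, P3 in the transition and P7 where most heart muscle cells leave the cell cycle for good. Each table lists the same 23940 rows, and a row is 1 transcript model with its ID, in most cases a position, and a level. Tissue was not sorted, so muscle, vessel wall, connective tissue and blood cells enter every value.

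In the days after birth the left ventricle takes over the full load of the systemic circulation, its muscle cells turn from dividing to growing in size, and their fuel shifts from glucose and lactate toward fatty acids. Mouse ventricle at the same time replaces the slow myosin heavy chain Myh7 with the fast chain Myh6, and imprinted growth genes that are active in the fetus are turned down. Long noncoding RNAs are transcripts with no long reading frame, and many lie antisense to, inside or just upstream of the genes of this program.

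Levels are given in FPKM, fragments scaled for transcript length and library size, an inferred unit. Positions are printed as deposited and have the reach of the build mm9. The genes beside them were found by matching the spans of rows to GENCODE transcripts. The tables give no strand, and whether reads were counted by strand is not given in the sources used here. A row that shares an exon with a coding gene can therefore not be told apart from that gene's own transcript. In total RNA, a row in an intron can likewise not be told apart from the unspliced transcript of the gene around it. Replicates of 1 age correlated at 0.905 to 0.912 in LV P7 and at 0.909 to 0.92 in LV P0, and libraries of different ages at 0.83 to 0.858, as Pearson's r over the rows tested on the log scale. The depth implied by the values was 16.6 to 18.2 M fragments in LV P7 and 15.3 to 20.5 M in LV P0. A short row of the mitochondrial chromosome fell into 2 separate ranges over the series, and it had 15.3 to 21.8 FPKM in LV P7, while 1 of the 3 LV P0 libraries, replicate 3, had 247 FPKM and the others 19.9 and 23.9. No label names a batch that goes with it.

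At P7 the left ventricle held lower levels of rows at the fetal genes Bmp10, H19 and Plagl1, and higher levels of rows at Foxo6 and Klf9. At the fetal gene Myh7, 3 of 4 rows were lower and 1 was higher. Rows placed within 10 kb of fuel genes went both ways, with 5 higher and 3 lower of 33, mitochondrial rRNA rows not counted. Of 11079 rows tested, 1245 (11.2%) were called at an adjusted p under 0.05, with 288 higher (2.6%) and 957 lower (8.64%) at P7, by limma on log2(FPKM + 0.1). The libraries of the 2 ages did not overlap in 3600 rows (32.5%), and in 1232 of the 1245 called rows. The median change over all rows tested was -0.32 on the log2 scale. When each library was shifted to the same median, 509 rows were higher (4.59%) and 399 lower (3.6%), or 908 in all (8.2%), so the balance of the directions depends on the scaling. All 288 rows called higher, and 399 of those called lower, were called in the same direction in both scalings. The count of called rows was 666 with LV P0 replicate 3 left out, 776 with LV P7 replicate 1 left out, 782 with LV P0 replicate 1 left out and 636 within the libraries low in the short mitochondrial row. The share of rows with a value of 0 was 47.6% to 48.7% in LV P7 libraries and 38.6% to 43.2% in LV P0 libraries. The row over the mitochondrial 16S rRNA gene took 20696 to 22890 FPKM in LV P7 and 14172 to 16091 FPKM in LV P0. The part of these measures in the shift was not tested.

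**Figure D1:**
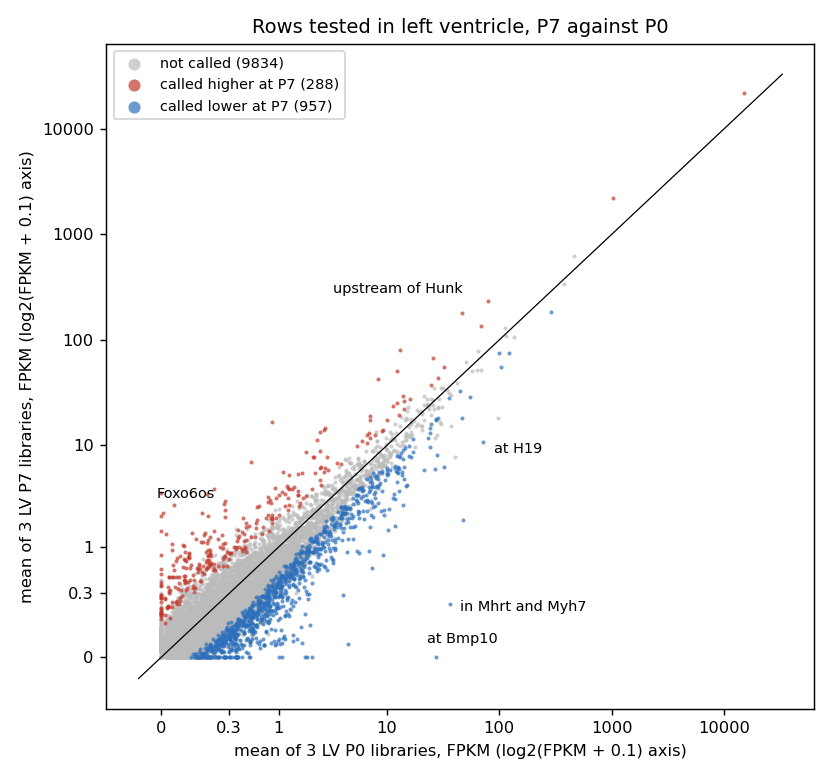
Mean level of each row tested in the 3 LV P7 libraries (vertical axis) against the 3 LV P0 libraries (horizontal axis), in FPKM on log2(FPKM + 0.1) axes, with the 288 rows called higher in red, the 957 called lower in blue and the diagonal as a line. The row at Bmp10 lies at 0 FPKM at P7 against 27.4 FPKM at P0, and the 16S rRNA row is the point at the upper right.

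The deepest loss was at Bmp10, a ligand of the bone morphogenetic protein family that drives growth of the trabecular ventricle wall in the embryo and is kept by the atria after birth. Row TCONS_00049214 on chromosome 6, positions 87387308 to 87387671, lies over a UTR of Bmp10. It was listed at 0 in all 3 LV P7 libraries, against 36.1, 17.6 and 28.5 FPKM in LV P0 libraries (limma, adjusted p = 2.73e-11). No LV library of P7 held it and every LV library of P0 did, and the rule that named the row asked for ages that do not overlap. In the right ventricle the same row also fell (adjusted p = 1.01e-09). Bmp10 is also on the list of atrial markers, where it is the only gene of 5 with a tested row that could be placed. Myl4, Myl7, Nppa and Sln had none, and the part of atrial tissue in the fall was not tested. In bulk tissue, fewer cells of a type and less RNA per cell cannot be told apart.

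The 250 bases upstream of the RefSeq start of Bmp10 are shown because its row had the largest change, in build GRCm38.p6 at chr6:87428744-87428993 on the plus strand, read from RefSeq and not from the build of the rows. Capitals mark AGATAA, the core letters bound by GATA factors of the heart, searched on both strands together with the TATA box, TATAAA, and the core letters of nuclear receptor sites, AGGTCA. The GATA letters stand in it 2 times, beginning 219 and 33 bases before the start, and 9.99% of 32851 upstream windows of this length hold it at least once. The other 2 motifs, held by 12.4% and 14% of windows in the order named, are not in these letters, and no match overlaps another.
Bmp10: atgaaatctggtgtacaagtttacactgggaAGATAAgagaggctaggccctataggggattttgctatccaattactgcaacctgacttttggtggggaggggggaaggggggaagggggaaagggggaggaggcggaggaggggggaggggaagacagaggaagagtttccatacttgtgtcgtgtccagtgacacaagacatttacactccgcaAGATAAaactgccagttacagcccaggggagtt

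At Myh7, the slow myosin heavy chain of the fetal mouse ventricle, 3 of 4 tested rows fell and 1 rose. Row NONMMUT020952, chromosome 14, positions 55590746 to 55591524, lies inside Myh7 away from its exons, and inside Mhrt, a noncoding gene transcribed from the opposite strand. Its level was 0.289, 0.155 and 0.212 FPKM in LV P7 libraries, against 33.4, 33.4 and 41.6 FPKM in LV P0 libraries (log2 change -6.84 ± 0.51 SE, adjusted p = 5.76e-08). It was above 30 FPKM in every LV library at birth and below 0.3 FPKM in every LV library at P7. Row NONMMUT020956, positions 55600011 to 55600850 in an intron of Myh7, averaged 0.0337 ± 0.0328 FPKM in LV P7 and 4.46 ± 0.14 FPKM in LV P0 (SD, n = 3 each; log2 change -5.12 ± 0.37 SE, adjusted p = 4e-08). Just upstream of Myh7, 110 bases from its start, row TCONS_00018758 at positions 55613573 to 55613820 was listed at 0 in LV P7 and had 1.87, 1.59 and 1.86 FPKM in LV P0 (adjusted p = 4.45e-06).

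Row NONMMUT020955 at the same locus moved the other way. It runs from position 55597685 to 55610438, begins 3.02 kb downstream of the Myh7 start at the edge of Gm31251, an annotated antisense noncoding gene, and spans 12.8 kb of Myh7 with its exons. Its level was 3.39, 3.39 and 3.33 FPKM in LV P7 libraries, against 0.0386, 0.208 and 0.215 FPKM in LV P0 libraries (log2 change 3.87 ± 0.44 SE, adjusted p = 1.01e-05). The smaller row NONMMUT020956, which fell, lies within its span. None of the 4 rows covers the hairpin of Mir208b, a microRNA gene in Myh7, which lies 18.8 kb downstream of the start.

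The 250 bases upstream of Myh7 are shown because a row that fell lies in them, at chr14:54994627-54994876 on the minus strand (RefSeq, GRCm38.p6). Capitals mark the 141 bases that TCONS_00018758 covers, by its distance from the gene, and the lower-case letters run on to the start. None of the 3 motifs is in these letters on either strand.
Myh7: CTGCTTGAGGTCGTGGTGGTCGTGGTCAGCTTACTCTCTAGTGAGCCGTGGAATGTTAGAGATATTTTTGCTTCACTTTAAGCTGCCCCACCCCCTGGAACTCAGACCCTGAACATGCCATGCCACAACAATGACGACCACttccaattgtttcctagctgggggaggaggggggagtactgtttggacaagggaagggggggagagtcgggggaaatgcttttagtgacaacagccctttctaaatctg

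**Figure D2:**
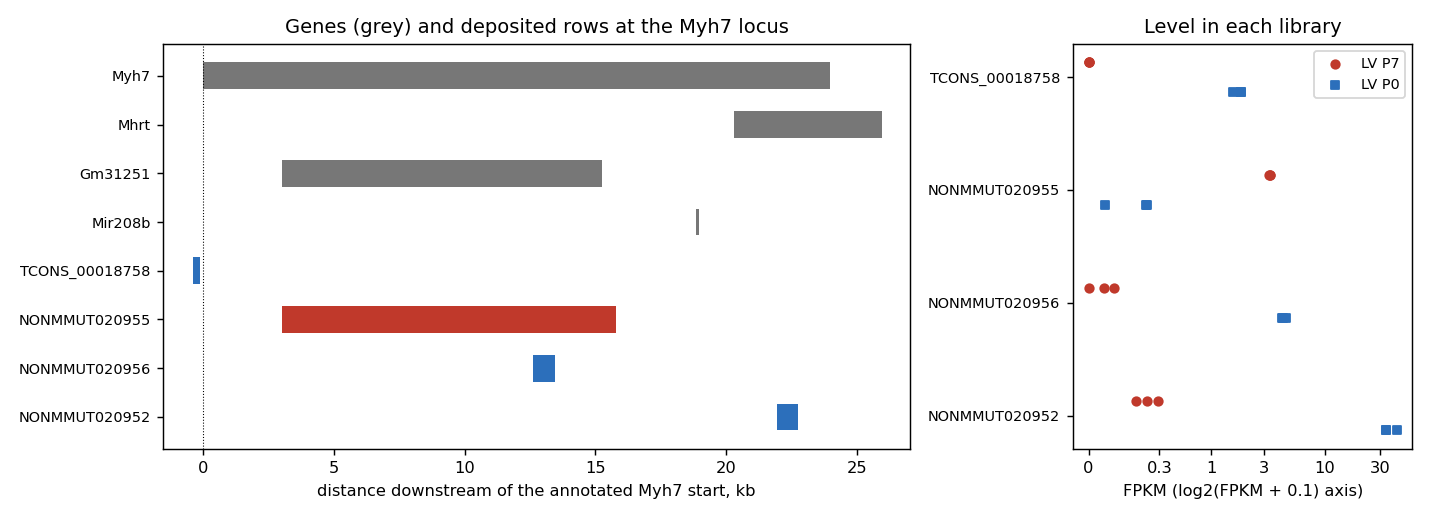
Left, annotated genes (grey) and the 4 deposited rows at the Myh7 locus by distance downstream of the Myh7 start in kb, with rows lower at P7 in blue and the row higher at P7 in red. Right, the level of each row in the 3 LV P7 (circles) and 3 LV P0 libraries (squares) in FPKM on a log2(FPKM + 0.1) axis, where NONMMUT020955 alone of the 4 has its P7 libraries above its P0 libraries.

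Rows at imprinted genes, which are expressed from 1 parental copy and many of which regulate fetal growth, were lower where they were called. Row NONMMUT064276 on chromosome 7, positions 149761434 to 149764051, lies over H19, the maternally expressed noncoding RNA that is among the most abundant transcripts of fetal muscle. Its level was 10.8, 10.3 and 10.9 FPKM in LV P7 libraries, against 95.7, 55.7 and 64 FPKM in LV P0 libraries (log2 change -2.70 ± 0.21 SE, adjusted p = 8.89e-08). Row NONMMUT004754, chromosome 10, positions 12810497 to 12844821, overlaps a UTR of Plagl1, a zinc finger factor that acts on other imprinted genes, and averaged 0.601 ± 0.151 FPKM in LV P7 and 7.27 ± 1.38 FPKM in LV P0 (SD, n = 3 each; log2 change -3.40 ± 0.27 SE, adjusted p = 1.49e-07). Both rows in introns of Grb10, an adaptor that dampens insulin receptor signalling, fell. NONMMUT008609 had 0.858, 0.972 and 0.915 FPKM in LV P7 and 4.99, 4.29 and 6.77 FPKM in LV P0 (adjusted p = 2.64e-05), and NONMMUT008606 had log2 change -2.02 ± 0.46 SE (adjusted p = 0.00714). Of 29 tested rows within 10 kb of listed imprinted genes, 0 were higher and 7 lower (24.1% called, against 11.2% of all rows), and 5 of the 7 were lower under each of 3 scalings. The remaining 3 called rows lie in the noncoding cluster of Meg3, Rian and Mirg and had group means under 0.35 FPKM at both ages. The 2 tested rows at Igf2, the fetal growth factor beside H19, had log2 changes of -1.05 and -0.51 and were not called.

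Among rows without a coding gene, NONMMUT038691 on chromosome 2, positions 94092036 to 94104915, spans Mir670hg, a host transcript of the microRNA gene Mir670, as the H19 row spans Mir675. It had 0.0965, 0.207 and 0.566 FPKM in LV P7 libraries, against 4.46, 2.51 and 5 FPKM in LV P0 libraries (log2 change -3.52 ± 0.41 SE, adjusted p = 1.52e-05). The mature microRNAs of both hosts are shown because the falling rows contain their hairpins, from RefSeq (GRCm38.p6), with the seed, bases 2 to 8, in capitals. They were not measured in these libraries. The 4 seeds differ from each other, and none is shared with any of the other mature mouse microRNAs in the table of 1679 names.
mmu-miR-675-5p: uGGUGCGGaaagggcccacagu
mmu-miR-675-3p: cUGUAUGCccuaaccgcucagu
mmu-miR-670-5p: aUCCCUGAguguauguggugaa
mmu-miR-670-3p: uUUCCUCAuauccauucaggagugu

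The other rows named for the largest falls were mostly short transcripts next to coding genes. TCONS_00059174 lies 44 bases upstream of Cdh3, the gene of P-cadherin, and was listed at 0 in LV P7, against 2.75, 1.33 and 1.57 FPKM in LV P0 (adjusted p = 1.83e-06). TCONS_00055858, 1239 bases downstream of the mitochondrial glutamyl-tRNA synthetase gene Ears2, had 1.18, 0.7 and 0.592 FPKM in LV P7, against 10.1, 8.7 and 8.89 FPKM in LV P0 (log2 change -3.39 ± 0.22 SE, adjusted p = 9e-09). TCONS_00013953, 712 bases upstream of Eml5, a microtubule-binding protein gene, averaged 0.1 ± 0.0402 FPKM in LV P7 and 2 ± 0.256 FPKM in LV P0 (SD, n = 3 each; adjusted p = 1.1e-06). That no P7 library reached any P0 library in these 3 rows was set by the rule that named them. TCONS_00026529, downstream of 1600014C23Rik, was listed at 0 in LV P7 and had 0.836 to 1.24 FPKM in LV P0, and TCONS_00043474, downstream of the zinc finger gene Zscan20, had at most 0.123 FPKM in LV P7 and 0.833 to 2.46 FPKM in LV P0. Another 4 of the 15 carry no position in the files. The most abundant of these, NONMMUT011874, had 2.19, 1.49 and 1.91 FPKM in LV P7 libraries and 57.6, 45.6 and 39.9 FPKM in LV P0 libraries (log2 change -4.60 ± 0.23 SE, adjusted p = 2.76e-10).

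Most of the largest rises came from rows with low levels at birth. NONMMUT049230 on chromosome 4, positions 119963955 to 119976497, has the exact span of Foxo6os, an annotated noncoding gene that begins 4001 bases upstream of the forkhead factor gene Foxo6. It had 2.76, 1.69 and 2.21 FPKM in LV P7 libraries, against 0, 0 and 0.0118 FPKM in LV P0 libraries (log2 change 4.46 ± 0.30 SE, adjusted p = 1.05e-08). The rule that named the row asked for LV ages that do not overlap, and the right ventricle gave a log2 change of 4.30 for the same row. TCONS_00038901 on chromosome 3, positions 63285069 to 63287868, over the annotated coding gene Gm34302, had 3.68, 4.49 and 2.2 FPKM in LV P7 and was listed at 0 in LV P0 (adjusted p = 1.08e-07). NONMMUT063992 on chromosome 7, positions 140939248 to 140945536, overlaps exons of Dhx32, an RNA helicase gene, and had 9.51, 20.5 and 20.4 FPKM in LV P7, against 1.09, 0.98 and 0.516 FPKM in LV P0 (log2 change 4.11 ± 0.43 SE, adjusted p = 3.61e-06). Of the rows named for the largest rises it was the most abundant at P7.

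The 250 bases upstream of the RefSeq start of Foxo6os are shown because its row rose from near 0, at chr4:120290883-120291132 on the plus strand (GRCm38.p6). The RefSeq start lies a short way upstream of that of the GENCODE transcript the row matches. There are no capitals, since none of the 3 motifs is in these letters on either strand.
Foxo6os: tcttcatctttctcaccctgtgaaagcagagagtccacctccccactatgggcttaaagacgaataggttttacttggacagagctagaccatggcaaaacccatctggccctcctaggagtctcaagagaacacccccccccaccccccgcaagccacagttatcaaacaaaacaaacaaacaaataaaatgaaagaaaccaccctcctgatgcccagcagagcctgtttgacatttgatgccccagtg

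Further rows named for large rises lay between coding genes or over coding genes. TCONS_00014813, in the noncoding gene Gm33424 and 34854 bases upstream of the transcriptional repressor gene Nfil3, had 2.26, 2.46 and 3.13 FPKM in LV P7, against 0.0877, 0 and 0 FPKM in LV P0 (log2 change 4.45 ± 0.46 SE, adjusted p = 3.4e-06). NONMMUT029111, 35396 bases downstream of Hsf2bp, had 1.6, 2.41 and 2.16 FPKM in LV P7 and was listed at 0 in LV P0 (adjusted p = 1.8e-07). TCONS_00030856, next to the metalloprotease gene Tll2, averaged 2.22 ± 0.586 FPKM in LV P7 and 0.13 ± 0.225 FPKM in LV P0 (SD, n = 3 each; adjusted p = 5.91e-05). All 3 were below 0.5 FPKM in every library at birth. TCONS_00062226 lies 75230 bases downstream of Smad6, the gene of an inhibitor of bone morphogenetic protein signalling. It varied between LV P7 libraries, with 0.428, 1.72 and 2.19 FPKM, and was listed at 0 in LV P0 (adjusted p = 0.000478). NONMMUT020733 lies in an intron of Klhl33, TCONS_00041689 over exons of the Golgi mannosidase gene Man1c1, and NONMMUT012231 has the span of the antisense gene Arhgap27os2 but overlaps exons of Arhgap27, and these averaged 1.35, 0.823 and 1.39 FPKM in LV P7 and under 0.1 FPKM in LV P0. NONMMUT070487, chromosome 9, positions 95464523 to 95468440, not placed at a gene, had 7.97, 5.79 and 6.94 FPKM in LV P7 and 0.38, 0.642 and 0.57 FPKM in LV P0 (log2 change 3.48 ± 0.23 SE, adjusted p = 9e-09). The other 3 that were not placed averaged 1.07 to 3.75 FPKM in LV P7 and 0.025 to 0.192 FPKM in LV P0.

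**Figure D3:**
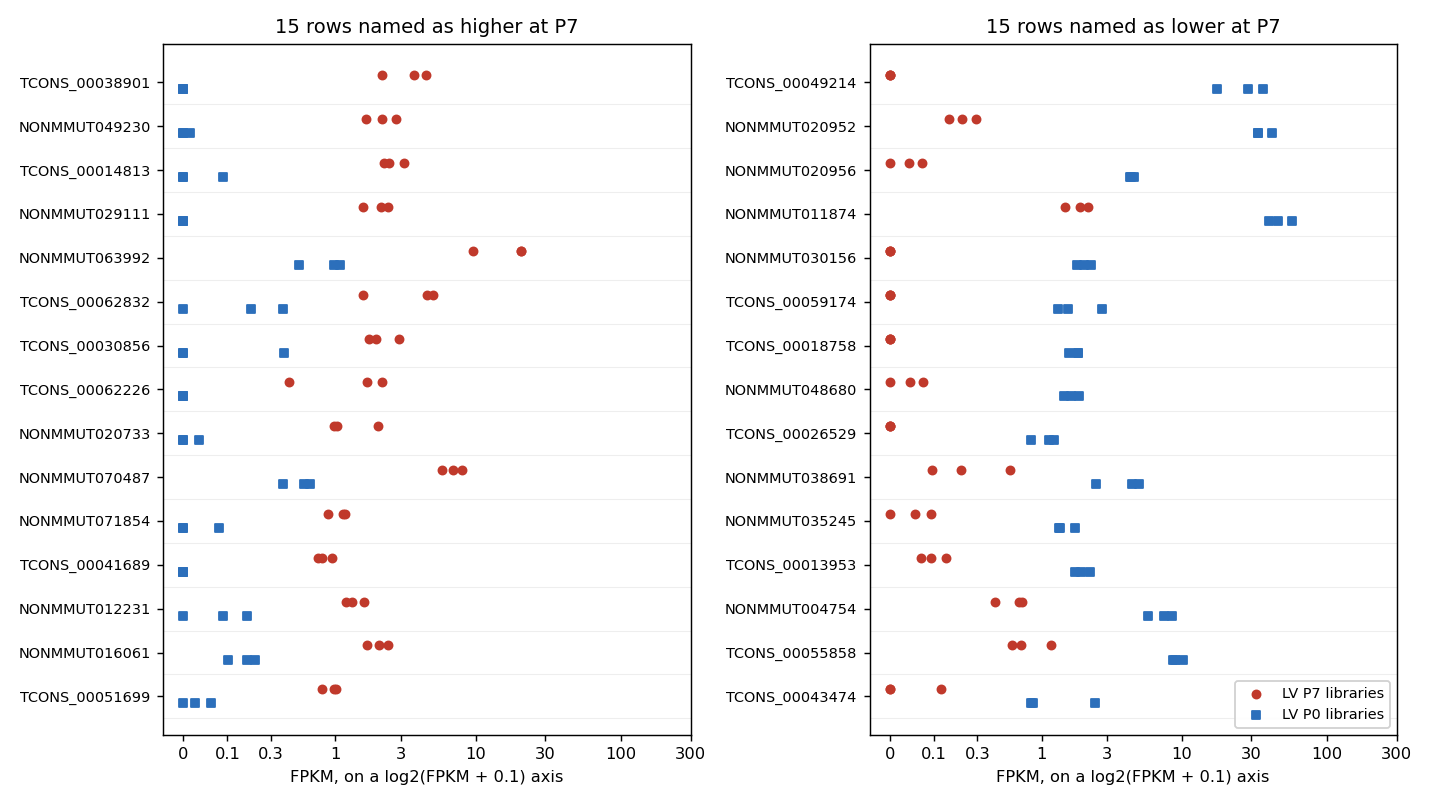
Level of the 15 rows with the largest rise (left) and the 15 with the largest fall (right) in each LV P7 library (circles) and LV P0 library (squares), in FPKM on a log2(FPKM + 0.1) axis. The rule asked for groups that do not overlap, and 4 of the rising rows are listed at 0 in every LV P0 library and 5 of the falling rows at 0 in every LV P7 library.

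The 15 rising and 15 falling rows were picked by their change between LV libraries. RV libraries also entered the choice, through the filter, the mean level over the 17 libraries and the spread in the fit. The RV values below are therefore not fully independent of it. In RV P7 against RV P0, 5.55% of all rows were called. There, all 15 rising rows had a positive change and 14 were called higher (1.83% of all rows were), and all 15 falling rows had a negative change and 13 were called lower (3.72% of all rows were). The labels do not say whether both ventricles came from the same animals. At P0 the short mitochondrial row was high in replicate 3 of both LV (247 FPKM) and RV (198 FPKM). Whether LV and RV libraries of the same number are linked was not tested, and the fit treats them as independent. All 30 were called in the same direction under each of 3 scalings in the LV.

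The most abundant rows that were called include mitochondrial rRNA and a strong transcript between coding genes. TCONS_00024059 on chromosome 16, positions 90341906 to 90350117, lies 36141 bases upstream of Hunk, a kinase gene, over the annotated genes Gm49708 and Gm49709, and had 241, 223 and 242 FPKM in LV P7 libraries, against 76.7, 74.5 and 88.4 FPKM in LV P0 libraries (log2 change 1.56 ± 0.09 SE, adjusted p = 1.61e-09). Its replicates were tight at both ages, and it was among the rows with the most fragments behind it. On the mitochondrial chromosome, the row over the 16S rRNA gene mt-Rnr2 and most of the mt-Nd1 gene averaged 21708 ± 1106 FPKM in LV P7 and 15091 ± 963 FPKM in LV P0 (SD, n = 3 each; log2 change 0.53 ± 0.11 SE, adjusted p = 0.00454, and 0.16 with no variance trend in the fit). A row with the span of the 12S rRNA gene mt-Rnr1 had 2176, 2840 and 1599 FPKM in LV P7, against 859, 1278 and 975 FPKM in LV P0 (log2 change 1.07 ± 0.30 SE, adjusted p = 0.0358). This call was lost with no variance trend. It was also lost with LV P0 replicate 1 or 3, or LV P7 replicate 1 or 2, left out. NONMMUT062940, with no position, averaged 181 ± 26.8 FPKM in LV P7 and 46.4 ± 6.61 FPKM in LV P0 (SD, n = 3 each; log2 change 1.96 ± 0.16 SE, adjusted p = 1.49e-07). NONMMUT059444, over exons of Casc1, had 117, 145 and 146 FPKM in LV P7 and 52.1, 92.3 and 63.3 FPKM in LV P0 (adjusted p = 0.00587, and 0.0639 within the libraries low in the short mitochondrial row). Of the abundant rows that were lower, NONMMUT061937 lies over a UTR of the muscle transcription factor gene Mef2a, meets the gene Lysmd4, and averaged 75.2 ± 6.92 FPKM in LV P7 and 98.7 ± 13.7 FPKM in LV P0 (SD, n = 3 each; log2 change -0.39 ± 0.11 SE, adjusted p = 0.0287), a direction that turned to 0.081 under trimmed mean scaling. Its call was lost without LV P0 replicate 3 (adjusted p = 0.155), LV P0 replicate 1, LV P7 replicate 2 or LV P7 replicate 3. NONMMUT063778, without a position, had 175 to 195 FPKM in LV P7 and 273 to 300 FPKM in LV P0 (adjusted p = 0.0144, 0.142 after median scaling, 0.0502 without LV P0 replicate 1 and 0.058 without LV P7 replicate 1). Another without a place averaged 75.5 FPKM in LV P7 and 123 FPKM in LV P0. Its call was lost after median scaling (adjusted p = 0.217), under trimmed mean scaling and with no variance trend.

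Known cardiac genes were taken from 8 lists, and rows within 10 kb of a listed gene were counted. Only rows that could be placed, 8450 of the 11079 tested, can enter these counts, so a gene without a row may have one that was not placed. Of 395 such rows, 15 were higher and 70 lower, where 2.6% of all rows were higher and 8.64% lower. The share of all rows called depended on the level asked for. Where only rows that reach 1 FPKM in 2 libraries or more were fitted, 878 of 2339 were called. The lists were not matched to all rows by level, and the part of level in a share above 11.2% was not tested. At genes of the sarcomere and Z-disc, the contractile units and their anchors, 2 of 51 rows were higher and 17 lower (37.3% called, against 11.2% of all rows), with a median log2 change of -0.74 against -0.32 over all rows. With median scaling the counts were 3 and 12 and the median was -0.42, against 0.01 over all rows. Beyond Myh7, all 4 rows at Sorbs2, an adaptor of the Z-disc, were lower, and 3 of them under each of 3 scalings. NONMMUT065455, with the span of Gm45457 in an intron of Sorbs2, had 0.164, 0.117 and 0.178 FPKM in LV P7 and 1.44, 1.33 and 2.58 FPKM in LV P0 (log2 change -2.85 ± 0.35 SE, adjusted p = 2.21e-05). TCONS_00040001, upstream of the Z-disc protein gene Pdlim5 by 116 bases, had 0.111, 0 and 0 FPKM in LV P7 and 0.818, 1.1 and 1.29 FPKM in LV P0 (log2 change -3.17 ± 0.37 SE, adjusted p = 1.52e-05). Both rows at Tpm1, the main tropomyosin of heart, share 1 position and exons with the gene, and NONMMUT069693 had 5.41 to 5.7 FPKM in LV P7 and 11.3 to 16.4 FPKM in LV P0 (adjusted p = 0.00906, and 0.0591 under trimmed mean scaling). NONMMUT045778, in an intron of the filament protein gene Nexn, had 1.17 to 2.07 FPKM in LV P7 and 3.67 to 6.56 FPKM in LV P0 (adjusted p = 0.00206). The row TCONS_00045588, over exons of Myl2, the regulatory light chain of the ventricle, and of its neighbour Ccdc63, went the other way, with 17.7, 17.2 and 17.8 FPKM in LV P7 and 10.8, 10.9 and 8.42 FPKM in LV P0 (log2 change 0.81 ± 0.16 SE, adjusted p = 0.00221).

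At cardiac transcription factors, 4 of 90 rows were higher and 17 lower (23.3% called, against 11.2% of all rows; median -0.57), and with median scaling, where 8.2% of all rows were called, 4 and 10. The lower rows included 7 of 8 at Hand2, a helix-loop-helix factor of ventricle formation, and its noncoding neighbour Hand2os1, and 4 of them were lower under each of 3 scalings. NONMMUT065691, chromosome 8, positions 59783087 to 59799638, ends 142 bases upstream of Hand2 and had 1.85, 2.67 and 2.7 FPKM in LV P7 libraries, against 9.88, 9.45 and 11.6 FPKM in LV P0 libraries (log2 change -2.07 ± 0.23 SE, adjusted p = 9.72e-06). NONMMUT005166, with the span of a transcript of Hey2, a Notch target of the compact ventricle wall, had at most 0.0623 FPKM in LV P7 and 0.565 to 0.938 FPKM in LV P0 (adjusted p = 1.8e-05). Downstream of Nkx2-5, the homeobox factor of the heart field, TCONS_00026073 had 5.91, 4.86 and 5.34 FPKM in LV P7 and 13.4, 10.9 and 13.5 FPKM in LV P0 (log2 change -1.21 ± 0.15 SE, adjusted p = 3.57e-05), and TCONS_00047451, beside the T-box gene Tbx5, had a log2 change of -1.96 ± 0.42 SE (adjusted p = 0.00475). The higher rows were Foxo6os and 3 of 4 at Klf9, a factor that responds to glucocorticoid and thyroid hormone. NONMMUT034211, over a UTR of Klf9, had 20.2, 15.9 and 15.9 FPKM in LV P7 and 4.46, 9.64 and 6.98 FPKM in LV P0 (log2 change 1.35 ± 0.30 SE, adjusted p = 0.00587). The other 2 lie 545 and 2186 bases upstream of Klf9, with log2 changes of 1.43 and 1.65, and all 3 were higher under each of 3 scalings. Within the libraries low in the short mitochondrial row, the UTR row of Klf9 (adjusted p = 0.0611) and the Tbx5 row (adjusted p = 0.0567) were not called.

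At genes of calcium handling and ion channels, 2 of 71 rows were higher and 15 lower (23.9% called, against 11.2% of all rows; median -0.58), and with median scaling 3 and 7. Slc8a1, the sodium-calcium exchanger that is high in the fetal heart, held 21 of these rows, of which 7 were lower, 3 of them under each of 3 scalings. NONMMUT030796, in an intron of Slc8a1, had 0.166, 0.757 and 1.08 FPKM in LV P7 and 2.65, 2.11 and 2.73 FPKM in LV P0 (log2 change -2 ± 0.51 SE, adjusted p = 0.0151), and it was not called without LV P0 replicate 3 (adjusted p = 0.0566) or without LV P7 replicate 1 (adjusted p = 0.093). NONMMUT044497 has the span of the noncoding gene 4632404M16Rik inside Casq2, the calcium store protein of the sarcoplasmic reticulum, and had 0.575, 0.981 and 0.791 FPKM in LV P7 and 3.05, 3.12 and 3.1 FPKM in LV P0 (log2 change -1.88 ± 0.34 SE, adjusted p = 0.00114). TCONS_00060273, 10 bases upstream of the pacemaker channel gene Hcn4, averaged 0.194 ± 0.151 FPKM in LV P7 and 0.981 ± 0.41 FPKM in LV P0 (SD, n = 3 each; adjusted p = 0.0191, 0.0639 after median scaling and 0.066 or higher with LV P0 replicate 2 or 3, or LV P7 replicate 2, left out). Rows at Trdn, which ties calcium store to release channel, were split, 1 higher and 2 lower of 4. The higher one, NONMMUT005204, was not called within the libraries low in the short mitochondrial row (adjusted p = 0.17) or with LV P0 replicate 1 or 3, or LV P7 replicate 1 or 3, left out. Of the lower ones, NONMMUT005206 was not called after median scaling (adjusted p = 0.136) or with any 1 LV P7 or LV P0 library left out. NONMMUT058585, over a UTR of the L-type calcium channel gene Cacna1c, had 6.96 to 8.44 FPKM in LV P7 and 10.7 to 14.5 FPKM in LV P0 (log2 change -0.75 ± 0.17 SE, adjusted p = 0.00899) and was not called after median scaling.

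Within 10 kb of fuel and mitochondrial genes, 5 of 33 placed rows were higher and 3 lower (24.2% called, against 11.2% of all rows; median 0.04), and 6 and 2 with median scaling. The list also holds mt-Rnr1 and mt-Rnr2. The mitochondrial rRNA rows described above, both called higher, were not placed by anchors and are outside these counts. The balance turned with the distance, to 2 higher and 3 lower of 19 rows inside the genes and 6 higher and 7 lower of 58 rows within 50 kb (median -0.12). TCONS_00051699, 3515 bases upstream of Ldhb, the heart subunit of lactate dehydrogenase, had 0.972, 1.02 and 0.791 FPKM in LV P7 and 0.02, 0.054 and 0 FPKM in LV P0 (log2 change 3.06 ± 0.34 SE, adjusted p = 6.85e-06). TCONS_00059309, 326 bases upstream of Mlycd, whose enzyme removes the inhibitor of fatty acid entry into mitochondria, had 0.741, 0.58 and 0.612 FPKM in LV P7 and 0.0493, 0 and 0.0275 FPKM in LV P0 (log2 change 2.58 ± 0.44 SE, adjusted p = 0.000701). Both were near 0 at birth. NONMMUT033416, 478 bases downstream of Cpt1a, the liver-type carnitine transferase of that entry step, had 12.2, 11.5 and 11.4 FPKM in LV P7 and 7.25, 6.29 and 7.47 FPKM in LV P0 (log2 change 0.74 ± 0.14 SE, adjusted p = 0.00194). Also higher were a row over exons of C2cd3 and the uncoupling protein gene Ucp3, which averaged 0.307 FPKM in LV P7 and 0.0167 FPKM in LV P0. Higher too was a row over exons of the acyl-CoA thioesterase gene Acot1 and its neighbours, which averaged 0.231 FPKM in LV P7 and 0.0334 FPKM in LV P0. The Acot1 call was lost with LV P0 replicate 1 or 2, or LV P7 replicate 2 or 3, left out. A row in an intron of Ldhb, NONMMUT059353, was lower, with 0.0836, 0.229 and 0.209 FPKM in LV P7 and 0.901, 0.683 and 0.762 FPKM in LV P0 (adjusted p = 0.00291), and so were a row over exons of Gpd1, the glycerol-3-phosphate dehydrogenase gene, and one over Pdk1, a kinase that turns off pyruvate dehydrogenase. The Pdk1 call was lost after median scaling and with LV P0 replicate 2 or 3, or any LV P7 library, left out.

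Cell cycle and growth genes had 0 higher and 4 lower of 27 rows (14.8% called, near the 11.2% of all rows, with a median of -0.32 as over all rows), and 1 row was lower under each of 3 scalings. That row, NONMMUT011880, lies over exons of Mien1 beside the receptor gene Erbb2 and had 0.105, 0 and 0.137 FPKM in LV P7 and 0.94, 0.858 and 0.98 FPKM in LV P0 (log2 change -2.60 ± 0.48 SE, adjusted p = 0.00158). The others lie at Igf2bp3, Igf1r and Cdkn1b, and their group means were under 0.8 FPKM at both ages. The Igf2bp3 row also spans exons of other genes, among them Gpnmb and Tmem176b. The Cdkn1b call (adjusted p = 0.0498) was lost with any 1 LV P7 or LV P0 library left out. Known noncoding RNAs and small RNA hosts had 4 higher and 15 lower of 106 rows (17.9% called, against 11.2% of all rows; median -0.46), and 7 and 7 with median scaling. Many of these repeat loci above, Mhrt, Hand2os1 and Foxo6os. At Gas5, a host of small nucleolar RNAs, 1 of 16 rows was lower, and 0 were with median scaling. The 1 placed row at Malat1, a nuclear RNA of most cells, averaged 0.511 FPKM in LV P7 and 0.74 FPKM in LV P0 and was not called (adjusted p = 0.741). This row need not stand for the level of Malat1 as a whole, since rows that were not placed could not be counted there. Secreted cardiac peptides had 2 tested rows, of which the Bmp10 row was the lower one. No tested row that could be placed lay within 10 kb of Nppa, Ttn, Neat1 or Kcnq1ot1.

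**Figure D4:**
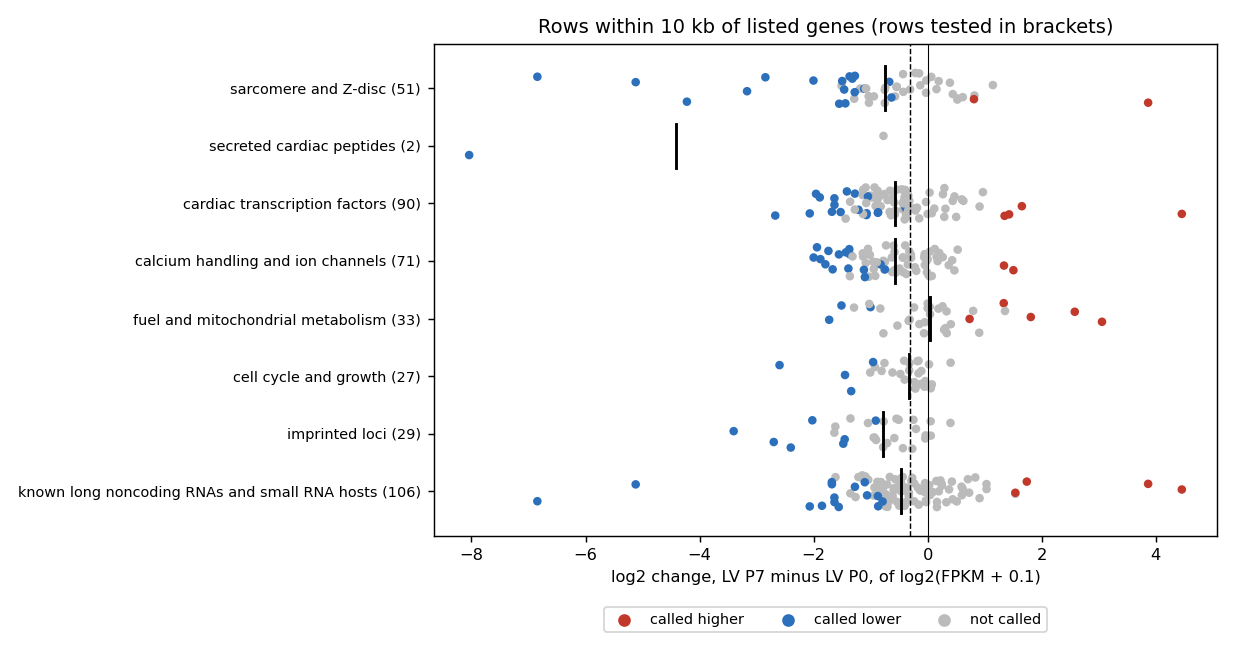
Log2 change of each tested row placed within 10 kb of the genes of 8 lists, LV P7 minus LV P0, coloured by call, with the median of each list as a black bar and the median over all rows tested (-0.32) as a dashed line. Fuel and mitochondrial metabolism has its median at 0.04 and 5 rows called higher, and the sarcomere list has its median at -0.74.

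Among all placed rows, those that rose lay more often between coding genes, 44.6% of 204, against 24.4% of 8450 rows tested and placed, and 26.9% of 681 that fell. Models with a TCONS ID, of the kind an assembler writes, made up 34.7% of rows called higher, 20.4% of those called lower and 15.1% of all rows tested. These shares are a description, with no test.

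Levels at P3 place the changes in the first week. From P0 to P3 to P7, the Bmp10 row averaged 27.4, 0.81 and 0 FPKM in the LV, the Mhrt and Myh7 row NONMMUT020952 36.1, 3.44 and 0.218 FPKM, and the H19 row 71.8, 23.4 and 10.7 FPKM, so most of each loss in FPKM was seen at P3. TCONS_00024059 upstream of Hunk averaged 79.9, 223 and 235 FPKM, and NONMMUT020955 at Myh7 0.154, 3.57 and 3.37 FPKM, both near their P7 level at P3. In FPKM, more of the change came after P3 for NONMMUT063992 at Dhx32, with 0.863, 2.16 and 16.8 FPKM, Foxo6os, with 0.00394, 0.505 and 2.22 FPKM, and the row upstream of Hand2, with 10.3, 6.56 and 2.41 FPKM. Between P7 and P3 the test called 1.34% of all rows, among them the Bmp10 row (adjusted p = 7.22e-05), NONMMUT020952 (adjusted p = 0.00359), the H19 row (adjusted p = 0.0116), the Dhx32 row (adjusted p = 0.00154), the Foxo6os row (adjusted p = 0.00224) and the Hand2 row (adjusted p = 0.00664), and it did not call TCONS_00024059 (adjusted p = 0.733) or NONMMUT020955 (adjusted p = 0.972). On the log2 scale of the tests, the Foxo6os row changed by 2.52 between P0 and P3 and by 1.94 between P3 and P7. The P7 and P0 libraries are those that chose the rows, so the tests against P3 are not independent of that choice.

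**Figure D5:**
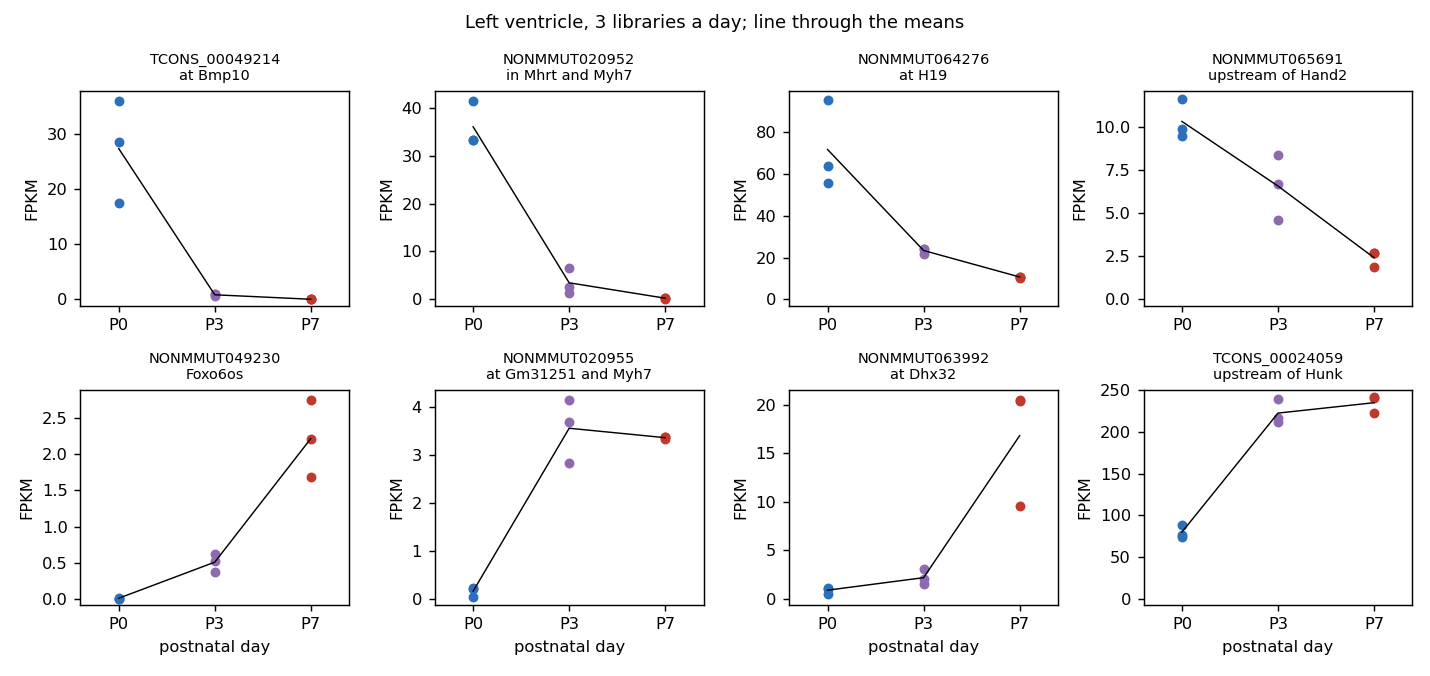
Level of 8 named rows in each of the 3 LV libraries at P0, P3 and P7, in FPKM on linear axes that begin at 0, with a line through the means. The 3 rows at Bmp10, Mhrt with Myh7, and H19 drop between P0 and P3, and the rows at Foxo6os and Dhx32 gain most FPKM between P3 and P7.

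The change from P0 to P7 was not called different between the ventricles in any of 11079 rows (0%, smallest adjusted p = 0.339), with 454 rows at an unadjusted p under 0.05. The 3 rows with the smallest p were TCONS_00022229, TCONS_00021468 and NONMMUT011874. TCONS_00022229, 108695 bases upstream of the repressor gene Bcl6, had 0.544, 0.349 and 0.85 FPKM in LV P7 and was listed at 0 in LV P0, and its RV change was 0. NONMMUT011874, described above, had a log2 change of -4.60 in the LV and -2.87 in the RV (unadjusted p of the difference = 9.17e-05). TCONS_00021468, over a UTR of Gm29666, had a log2 change of 0.68 in the LV, not called, and -2.72 in the RV (unadjusted p of the difference = 6.91e-05). With 2 libraries in RV P7 the test has less to work with on that side. It also treats LV and RV libraries as independent, which the labels do not settle.

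Cell type markers were read at the same distance, again over placed rows only. Rows at cardiomyocyte genes summed to 27.1 to 28.4 FPKM in LV P7 libraries and 56.4 to 63.7 FPKM in LV P0 libraries, over 12 rows at 5 of 9 genes (2 higher, 3 lower). Without the Mhrt and Myh7 row NONMMUT020952 they summed to 27 to 28.2 FPKM in LV P7 and 22.1 to 23.9 FPKM in LV P0. The lower sum at P7 came from that row. No placed row lay at Actn2, Nppa, Tnnt2 or Ttn. Rows at fibroblast and matrix genes (9 rows at 6 of 15 genes) summed to 117 to 155 FPKM in LV P7 and 94.4 to 145 FPKM in LV P0, and those at endothelial genes (5 rows at 3 of 12 genes) to 4.44 to 5.52 FPKM in LV P7 and 2.92 to 4.99 FPKM in LV P0, with 0 rows called in either list. The row NONMMUT011619 over a UTR of the collagen gene Col1a1 had 129, 113 and 151 FPKM in LV P7 and 140, 89.9 and 109 FPKM in LV P0. Erythroid rows (3 rows at 2 of 12 genes) summed to under 0.8 FPKM in every library, with no placed row at the globin genes, and immune rows (3 rows at 3 of 10 genes) to 4.95 to 5.74 FPKM in LV P7 and 5.63 to 10.7 FPKM in LV P0. Nearly all of that sum was NONMMUT060251, over exons of the ribosomal protein gene Rps19 beside the B cell gene Cd79a. The other 2 immune rows summed to 0.0282 to 0.16 FPKM in LV P7 and 0.0657 to 0.24 FPKM in LV P0. Epicardial rows (6 rows at 2 of 4 genes) summed to 1.88 to 3.13 FPKM in LV P7 and 4.69 to 10.5 FPKM in LV P0, with 1 called row, NONMMUT054852 over a UTR of Upk3b, a gene of the heart's outer layer, at 1.26, 2.16 and 2.69 FPKM in LV P7 and 9.64, 4.19 and 8.58 FPKM in LV P0 (adjusted p = 0.000761). Rows at mural and glial genes (4 rows at 3 of 5 genes) summed to 12 to 13.5 FPKM in LV P7 and 5.12 to 8.13 FPKM in LV P0, through NONMMUT025605, which lies over exons of Fopnl next to the smooth muscle myosin gene Myh11 (adjusted p = 0.00547). No placed row lay at this distance from the listed lung and skeletal muscle markers. The part of cell makeup in any of the changes above was not tested.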

How the data were processed

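The authors deposited 1 table per library with an ID, a position and a value for each of 23940 rows. The submitters' processing notes name STAR 2.4.0j and the build mm10; no source used here gives the counting tool, the annotation or the unit. The deposited values were read as FPKM, because value times span falls on steps of 0.5 fragments in 75.5% to 77.7% of low values per library. These steps give depths of 13.8 to 20.5 M fragments. Positions run past the last GRCm38 gene on 9 chromosomes besides the mitochondrial one, by 7.08 Mb on chromosome 7, and were taken to be mm9. No position was converted. A row whose span equals exactly 1 GENCODE M21 transcript on its chromosome, at a distance shared with another such row within 2 Mb, served as an anchor (2242 positions). Rows between anchors that agree within 100 bases were placed at genes, which covered 80.4% of rows with a position. All 1954 anchors that could be checked were placed the same by their neighbours. A total of 702 rows have no position, and 5055 share a position with another row.

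Differences were tested with limma 3.58.1 (R 4.3.3) on log2(FPKM + 0.1), with means for 6 groups of 17 libraries, moderated robustly with a trend in variance, on rows that reach 0.1 FPKM in 2 libraries or more, two-sided, with Benjamini-Hochberg adjustment over all rows tested. Fold changes on this scale understate the change of low rows, and no fold is given against a group listed at 0. At these depths, rows below 1 FPKM rest on few fragments, and no counting interval was computed. The p-values measure the spread between libraries that the labels call biological replicates. The fit was tested on simulated data. Named rows are the 15 loci with the largest rise and 15 with the largest fall among called rows that do not overlap and lie above the median level, the 8 most abundant called rows, up to 4 called rows per list, or the most abundant where none was called, and the 3 with the smallest p between ventricles. Rows given beyond these at Sorbs2, Pdlim5, Tpm1, Nexn, Myl2, Nkx2-5, Klf9, Cacna1c, Cpt1a, Igf2, Malat1, Gpd1, Pdk1 and Acot1 were chosen after their values were seen. The members, lists and tests were chosen with earlier results of these data known. For Ahsp, Mir143hg and Mir503hg no annotation was matched. Alternatives covered the pseudocount, filter, scaling, variance model, libraries in the fit, replicate block, library set, rows summed per position and each library left out.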

Additional observations from a re-analysis of the deposited data

How the results depend on the processing

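The count of 1245 called rows was 738 (534 lower) with no filter on low values, 636 (183 higher, 453 lower) within the libraries low in the short mitochondrial row, and 666 to 972 without 1 library, where leaving out LV P0 replicate 3 gave 666, LV P7 replicate 1 gave 776 and LV P0 replicate 1 gave 782. Higher calls then numbered 195 to 238 and lower calls 471 to 734, with 616 lower without LV P7 replicate 2. Median scaling gave 509 higher and 399 lower and trimmed mean scaling 529 and 389, against 288 and 957. The other alternatives gave 878 to 1407. No call between ventricles became 1 without the filter and 1 with only the groups compared. Of 120 named or listed rows that were called, 87 kept the call with median scaling, 81 of 119 within the low libraries 111 with a pseudocount of 0.01 and 86 to 100 with 1 library left out. The Mef2a row NONMMUT061937 turned to 0.081 with trimmed mean scaling. NONMMUT074315 (0.08, not called) ranged from -0.256 to 0.34 without 1 library, and was -0.11 without LV P0 replicate 1. The cause was not tested. Replicate numbers did not pair LV P7 with LV P0 libraries. Deviations of libraries with the same number correlated at 0.0069, -0.0052 and -0.0023 between these ages. The fit with a replicate block within each ventricle called 1029 rows, 258 higher and 771 lower. Across ventricles the number may matter. The short mitochondrial row was high in replicate 3 at P0 and replicates 1 and 3 at P3, in LV and RV alike. Links between LV and RV libraries of 1 number were not tested. The values are inferred to be FPKM, rows below 1 FPKM rest on few fragments, and 80.4% of rows with a position could be placed. The sums of marker rows without the most abundant row of each list were added after seeing the data.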
